A study of Mus musculus with 12 samples.

Results

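The genes described here are 10 members of the ATF4 stress response, chosen by symbol as transcripts of this pathway: Atf4, Atf5, Ddit3, Trib3, Asns, Phgdh, Psat1, Chac1, Ddit4 and Sesn2. They stand among 56065 deposited genes, and each of the 10 passed the filter on low counts that 17893 genes passed. Bulk RNA-sequencing was performed on submandibular glands (SMGs) of mice aged 8 weeks, with 3 libraries in each of 4 groups: C57BL/6J (wild-type) females, C57BL/6J-Pou2f3-/- females, C57BL/6J males and C57BL/6J-Pou2f3-/- males. The knockout strain, C57BL/6J-Pou2f3 em1Cbwi /J, carries its altered Pou2f3 in the germline and so in every cell of the body, and lacks the transcription factor that defines tuft cells (TCs), the chemosensory cells of the gland ducts. No further allele or agent is named for any group. The comparisons ask how the glands differ when TCs are lost, in females and in males.

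ATF4 is a basic leucine zipper (bZIP) transcription factor whose protein is made mostly when the initiation factor eIF2alpha is phosphorylated. Kinases that sense unfolded protein in the endoplasmic reticulum, lack of amino acids, lack of heme or double-stranded RNA carry out this phosphorylation, and the route is called the integrated stress response. Much of the control of ATF4 lies in translation, so its transcript level is not a measure of its protein. Its targets include enzymes that make or import amino acids, and secretory glands, which export large amounts of protein, use both this route and the XBP1 and ATF6 arms of the unfolded protein response.

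ATF4 binds with C/EBP partners to a composite element whose core is written TGATGNAA, and the promoters of the members were searched for these letters to show where the element can be read. Promoter windows from RefSeq (GRCm38.p6, 250 bases before to 50 after a transcription start) were found for each of the 10 members, 12 windows in all. The letters, in either strand, were found in 3 of these 12 windows, in Chac1, Asns and Trib3, and in 3.97% of the 32851 windows in the table. The stretches are shown 5′ to 3′ in the direction of the gene, with the match in capitals. Chac1 (GRCm38.p6, chr2:119351013-119351092, plus strand) carries the match on the reverse strand, 193 bases before the start. Asns (chr6:7693210-7693268, minus strand) carries it 23 bases before the start, in the form TGATGAAA. Trib3 (chr2:152344028-152344057, minus strand) carries it on the reverse strand just after the start, and only 30 bases are shown.
Chac1: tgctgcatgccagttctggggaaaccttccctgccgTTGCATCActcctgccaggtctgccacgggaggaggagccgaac
Asns: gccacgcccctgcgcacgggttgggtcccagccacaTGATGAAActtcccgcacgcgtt
Trib3: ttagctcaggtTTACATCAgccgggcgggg
The other 7 members held no match to these letters in their windows. Chac1, Asns and Trib3 fell in knockout females, and so did Atf4, Phgdh and Psat1, which held no match. The link between the letters and these falls was not tested. Of 48 other listed genes with a window, 10 held a match: Atf3, Nupr1, Jdp2, Pycr1, Pck2, Got1, Fgf21, Herpud1, Vldlr and Eif2s3x. None of the 8 genes of the XBP1 and ATF6 arms did. The form TGATGCAA, in either strand, was that of 8 of these 10 genes and of 22.5% of all windows that held a match. Of the 9 that were tested, Pycr1, Pck2, Got1, Herpud1 and Eif2s3x fell in knockout females, while Atf3, Nupr1, Jdp2 and Vldlr did not pass. In the same comparison 19.3% of all genes tested and 23.9% of protein-coding genes fell.

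Total estimated counts ranged from 47032175 to 67882207 per library, and the factors of the trimmed mean of M-values (TMM) from 0.625 to 1.45. Pou2f3, the targeted gene, had 1, 0 and 2 counts in wild-type females and 0 in each knockout female, while the male libraries had 1, 10 and 0 counts in wild type and 0, 3 and 1 in knockouts. At this level it does not check the labels. The tuft cell markers Gnat3 and Il25 had 0 counts in every library, and since such a 0 is still possible with 3 counts expected, levels up to 0.0399 to 0.0782 CPM (counts scaled to a common library total) stay possible, counting error alone being considered. Avil, the 1 of 6 tuft cell markers that passed the filter, had 16, 2 and 6 counts in wild-type and 55, 25 and 32 counts in knockout females, and rose (2.06, edgeR adjusted p = 0.0139). The acinar markers Aqp5, Bhlha15, Prol1 and Slc12a2 and the granular convoluted tubule markers Egf and Klk1 were detected in every library, while the acinar marker Smgc was at 0.0133 to 20.4 CPM in males. Some libraries stood apart. Muc19, a mucin of the sublingual gland, was at 4901 CPM in knockout female replicate 3 and 7391 CPM in wild-type male replicate 3, and at 1.8 to 174 CPM in the other 10. The sum of 4 adipocyte markers (Adipoq, Plin1, Cidec and Lep) was 18.8 CPM in wild-type female replicate 3, 17.5 in knockout male replicate 2 and 8.82 in knockout male replicate 3, and at most 2.15 elsewhere. Wild-type female replicate 1 had 414 CPM of Smgc against 3348 and 3643 in the other libraries of its group, and the highest sum of 5 macrophage markers (138 CPM). For some lists and comparisons, the counts of genes that passed are given below also without the libraries high in Muc19 or in adipocyte markers.

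Levels are given as TMM-adjusted CPM, and differences as log2 fold changes, knockout minus wild type, with their standard error (SE). A gene is said to have changed where the Benjamini-Hochberg adjusted p of edgeR's quasi-likelihood test, over all genes tested, was under 0.05. Per kilobase of the canonical transcript, mean levels in wild-type females were 40.9 CPM for Atf4, 34.3 for Phgdh, 33.9 for Asns, 14 for Atf5, 8.86 for Psat1 and 7.36 for Ddit4. The same level was 1.64 CPM per kilobase for Chac1, 1.18 for Sesn2, 1.12 for Ddit3 and 0.942 for Trib3. The first 3 genes of this order were thus the most abundant of the set in the female gland, and the last 4 were rare transcripts.

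In knockout females, 6 of the 10 members fell: Psat1, Chac1, Asns, Trib3, Phgdh and Atf4, by 0.48 to 1.79 on the log2 scale. None rose. Of all genes tested, 19.3% fell and 17.6% rose in this comparison, and 23.9% of protein-coding genes fell. The median log2 fold change was −0.67 over the 10 members, 0.03 over all genes tested and −0.08 over protein-coding genes. The same 6 members had no overlap between knockout and wild-type females, as was so for 24.1% of all genes in the downward and 25.2% in the upward direction. With upper-quartile factors in place of TMM the members' count was also 6, while the split of all calls moved from 3453 lower and 3158 higher to 2679 lower and 3962 higher. In males, 0 of the 10 members changed in edgeR's test, where 0.134% of all genes fell and 0.101% rose. An unadjusted p under 0.05 was found for 5 members in males and for 11.5% of all genes, and the DESeq2 Wald test also called 0.

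**Figure D1:**
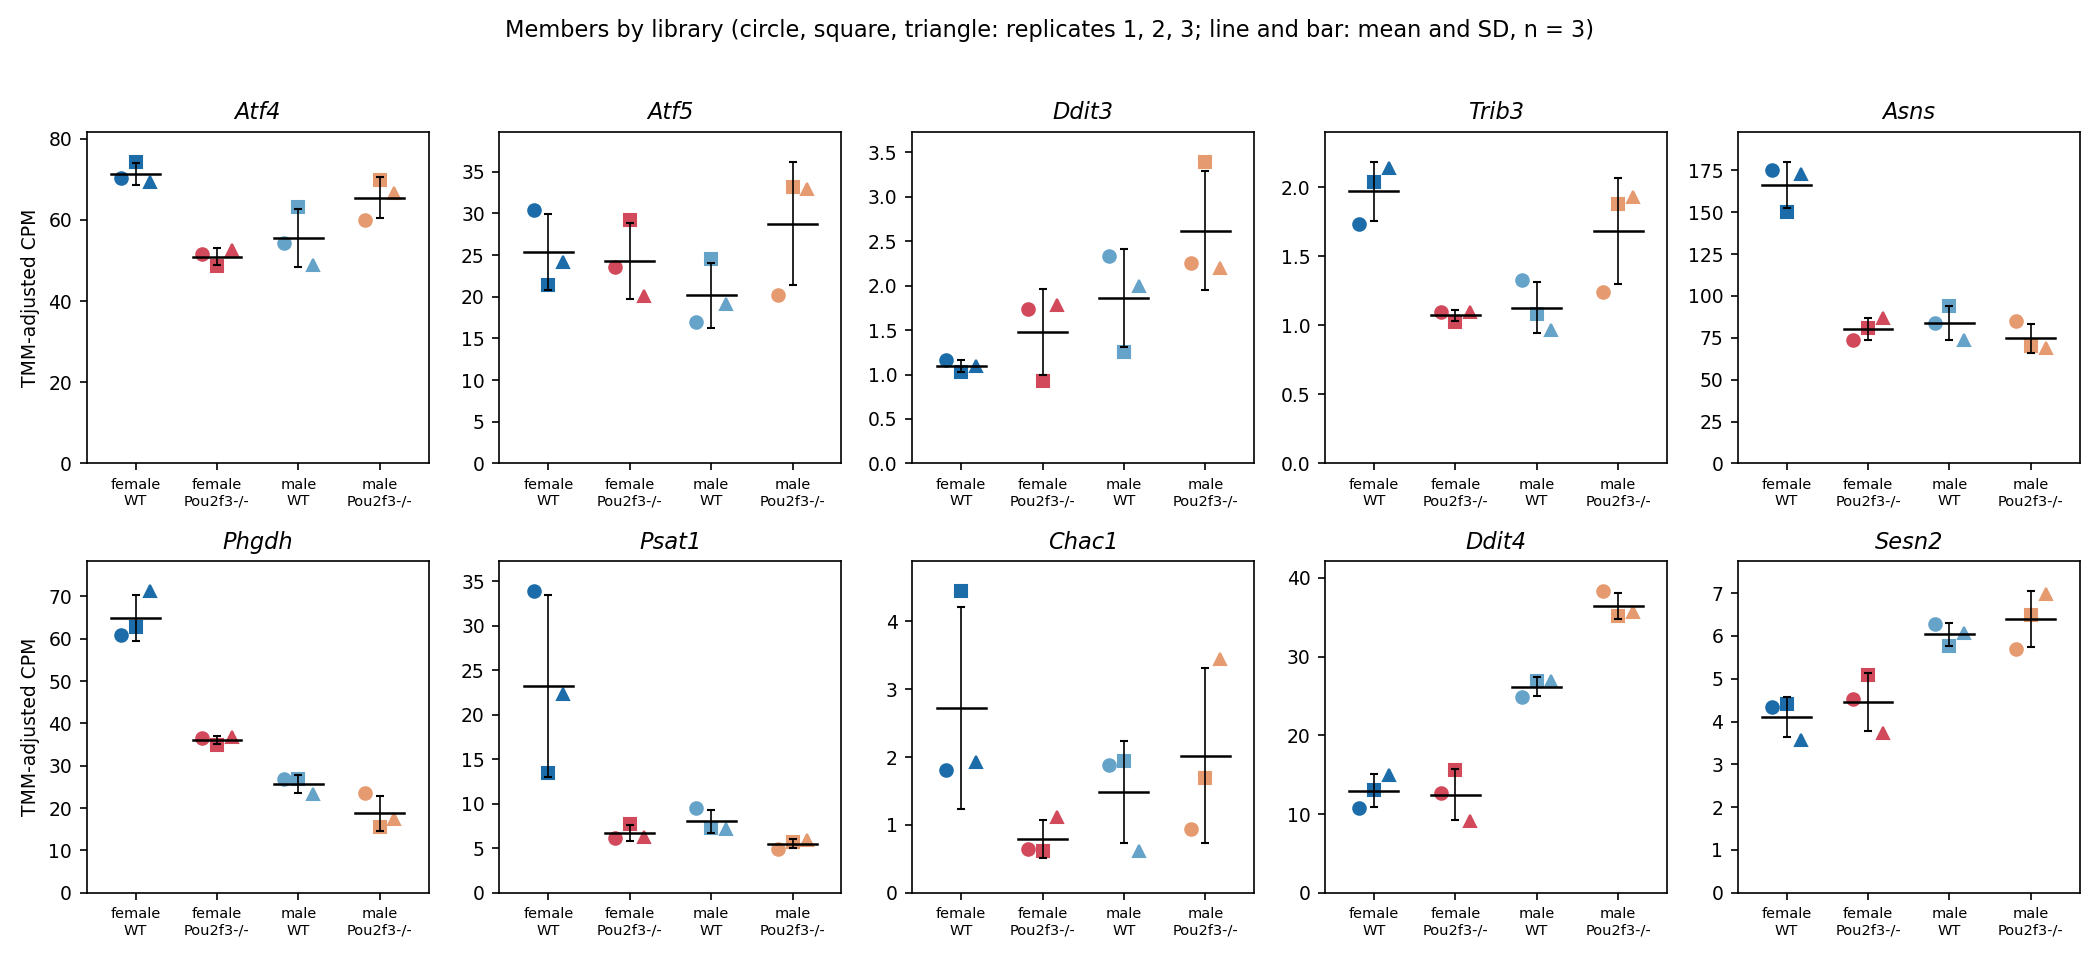
TMM-adjusted CPM (linear axis from 0) of each member in every library, by group. Points are libraries, lines are means and bars are the SD over 3 libraries. The wild-type females stand above the other 3 groups for Asns, Phgdh and Psat1, while Ddit4 and Sesn2 are higher in the 6 male libraries.

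Atf4 (ENSMUSG00000042406.9, GRCm39 chromosome 15, 80139372 to 80141745), the factor itself, was at 70.4, 74.2 and 69.3 CPM in wild-type females and 51.6, 48.7 and 52.6 CPM in knockout females. The groups did not overlap, and Atf4 fell by 0.48 on the log2 scale (SE 0.10, edgeR adjusted p = 0.00337). In males it was at 54.4, 63.2 and 49.0 CPM in wild type and 59.9, 69.9 and 66.5 CPM in knockouts. The male groups overlapped, with a log2 difference of 0.24 (SE 0.10, edgeR adjusted p = 0.405).

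Trib3 (ENSMUSG00000032715.10, chromosome 2, 152179337 to 152191958) encodes a pseudokinase that ATF4 and CHOP induce and that dampens their activity. It was at 1.73, 2.04 and 2.14 CPM in wild-type females and 1.1, 1.02 and 1.09 CPM in knockouts, with no overlap, and fell by 0.88 (SE 0.23, edgeR adjusted p = 0.0108). With the authors' own divisors in place of TMM the female difference was −0.65 (edgeR adjusted p = 0.119). Males ran the other way in their means, at 1.33, 1.08 and 0.970 CPM in wild type and 1.24, 1.88 and 1.93 CPM in knockouts, and overlapped (0.58, SE 0.23, edgeR adjusted p = 0.334).

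Atf5 and Ddit3 encode further bZIP factors of this response. Atf5 (ENSMUSG00000038539.16, chromosome 7, 44461680 to 44466082), a relative of ATF4 that acts in the mitochondrial stress response, was at 30.4, 21.4 and 24.2 CPM in wild-type females and 23.5, 29.2 and 20.1 CPM in knockouts. In males it was at 16.9, 24.5 and 19.1 CPM in wild type and 20.3, 33.2 and 32.9 CPM in knockouts. Both sexes overlapped between genotypes, with log2 differences of −0.06 in females (SE 0.21, edgeR adjusted p = 0.84) and 0.51 in males (SE 0.21, edgeR adjusted p = 0.358).

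Ddit3 (ENSMUSG00000025408.16, chromosome 10, 127124268 to 127132163) encodes CHOP, the factor tied to cell death under lasting stress. It was at 1.17, 1.03 and 1.09 CPM in wild-type females and 1.74, 0.923 and 1.78 CPM in knockouts, and at 2.33, 1.25 and 2.00 CPM in wild-type males and 2.26, 3.39 and 2.20 CPM in knockouts. The difference was 0.42 in females (SE 0.31, edgeR adjusted p = 0.308) and 0.49 in males (SE 0.29, edgeR adjusted p = 0.562), so Ddit3 did not pass in either sex. A second deposited identifier of this symbol, ENSMUSG00000116429.2, was at 0 counts in every library. Mars1 and Mbd6 lie over Ddit3 on the opposite strand, and the libraries are described as stranded.

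The 3 enzymes of amino acid synthesis fell in knockout females. Asns (ENSMUSG00000029752.13, chromosome 6, 7671667 to 7728461), which makes asparagine, was at 175, 150.2 and 173 CPM in wild-type females and 73.5, 80.7 and 86.7 CPM in knockouts. The lowest wild-type library stood well above the highest knockout one, and Asns fell by 1.05 (SE 0.13, edgeR adjusted p = 0.000224). Males were near the knockout females in both genotypes, at 84.0, 93.8 and 73.8 CPM in wild type and 84.8, 70.1 and 69.2 CPM in knockouts (−0.17, SE 0.12, edgeR adjusted p = 0.666).

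Phgdh, Psat1 and Psph act in that order to make serine from a glycolytic intermediate. Phgdh (ENSMUSG00000053398.12, chromosome 3, 98220484 to 98255047) was at 60.9, 62.8 and 71.2 CPM in wild-type females and 36.6, 34.9 and 36.7 CPM in knockouts, and fell by 0.85 (SE 0.13, edgeR adjusted p = 0.000615). In males it was at 26.8, 27.0 and 23.3 CPM in wild type and 23.5, 15.5 and 17.3 CPM in knockouts, a difference of −0.45 (SE 0.13, edgeR adjusted p = 0.197). Knockout male replicate 1 lay within the wild-type range, and without it the male difference was −0.64 (edgeR adjusted p = 0.0102). Its annotated pseudogene Phgdh-ps1 had at most 4 counts in any library.

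Psat1 (ENSMUSG00000024640.10, chromosome 19, 15882039 to 15924701) varied more in wild-type females than in its other groups, at 33.9, 13.5 and 22.3 CPM, against 6.17, 7.70 and 6.28 CPM in knockouts. Even so the lowest wild-type library was above the highest knockout one, and Psat1 fell by 1.79 (SE 0.26, edgeR adjusted p = 0.000416). The highest value is that of wild-type female replicate 1, and with each library left out in turn the female difference stayed between −2.11 and −1.48. In males Psat1 was at 9.53, 7.27 and 7.22 CPM in wild type and 4.95, 5.74 and 5.89 CPM in knockouts. These male groups did not overlap, yet the difference of −0.54 (SE 0.25) had an edgeR adjusted p of 0.451. Psph, chosen for naming after its values were seen, fell in females from 4.01 ± 0.228 to 2.47 ± 0.439 CPM (SD, n = 3, −0.69, edgeR adjusted p = 0.0115).

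Chac1 (ENSMUSG00000027313.4, chromosome 2, 119180757 to 119184866), which breaks down glutathione, was the member with the widest error. It was at 1.81, 4.44 and 1.93 CPM in wild-type females and 0.639, 0.621 and 1.11 CPM in knockouts, without overlap, and fell by 1.79 (SE 0.55, edgeR adjusted p = 0.0225). The call was lost on leaving out wild-type female replicate 2 (−1.29, adjusted p = 0.103), knockout female replicate 1 (−1.71, adjusted p = 0.075) or knockout female replicate 2 (−1.68, adjusted p = 0.0672). Males were at 1.89, 1.95 and 0.613 CPM in wild type and 0.936, 1.69 and 3.44 CPM in knockouts, and the groups overlapped widely (0.45, SE 0.52, edgeR adjusted p = 0.81).

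Ddit4 and Sesn2 encode proteins that restrain the growth kinase mTORC1, and both are induced by other routes as well as by ATF4. Ddit4 (ENSMUSG00000020108.5, chromosome 10, 59785491 to 59788492), a glucocorticoid and hypoxia target, was at 10.8, 13.1 and 15.0 CPM in wild-type females and 12.7, 15.5 and 9.13 CPM in knockouts (−0.05, SE 0.16, edgeR adjusted p = 0.826). In males it was at 24.9, 26.9 and 26.8 CPM in wild type and 38.3, 35.2 and 35.7 CPM in knockouts. Each knockout male was above each wild-type male, with a difference of 0.47 (SE 0.16) whose edgeR adjusted p was 0.253. Ddit4 and Psat1 were the members whose male genotypes did not overlap, 1 upward and 1 downward, as was so for 6.51% and 7.95% of all genes in these directions.

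Sesn2 (ENSMUSG00000028893.9, chromosome 4, 132219335 to 132237815), which also senses leucine, was at 4.34, 4.42 and 3.57 CPM in wild-type females and 4.53, 5.08 and 3.73 CPM in knockouts. In males it was at 6.28, 5.75 and 6.08 CPM in wild type and 5.69, 6.48 and 6.99 CPM in knockouts. The genotypes overlapped in both sexes, with differences of 0.11 in females (SE 0.14, edgeR adjusted p = 0.566) and 0.08 in males (SE 0.14, edgeR adjusted p = 0.881).

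Markers of several cell types differed beside the falls in females, a comparison in which 19.3% of all genes tested fell. Of 6 acinar markers, Aqp5 (−0.94, edgeR adjusted p = 0.0011) and Slc12a2 (−0.73, edgeR adjusted p = 0.0298) fell and 4 did not pass. The sum of 6 acinar markers (Aqp5, Bhlha15, Smgc, Dcpp1, Prol1 and Slc12a2) ran from 41934 to 49393 CPM in wild-type females and from 26883 to 33905 CPM in knockouts. Most of this sum was Prol1, at 38162 to 42568 CPM in wild-type and 24192 to 30550 CPM in knockout females, which did not pass (−0.54, edgeR adjusted p = 0.0766). In males the sum ran from 8312 to 14653 CPM in wild type and from 7464 to 9816 CPM in knockouts. The sum of 5 macrophage markers was 60.6 to 138 CPM in wild-type and 46.4 to 70.8 CPM in knockout females, and 3 of the 5 fell. Of 4 myoepithelial markers 3 fell (Acta2, Cnn1 and Krt14), with a sum of 114 to 157 CPM in wild-type and 87.4 to 106 CPM in knockout females. Of 4 adipocyte markers 2 fell (Plin1 and Cidec), and of 5 duct markers 1 fell (Krt8). Without the libraries high in Muc19, 1 of 6 acinar and 1 of 4 myoepithelial markers fell. In that setting 0 of 5 macrophage, 0 of 4 adipocyte and 0 of 5 duct markers fell, with medians of −0.69, −2.86 and 0.23. The part of these cells in the members' differences was not tested, and in whole glands fewer cells of a type and less RNA per cell cannot be told apart. The female count was also 6 without the libraries high in Muc19, and without those high in adipocyte markers.

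**Figure D2:**
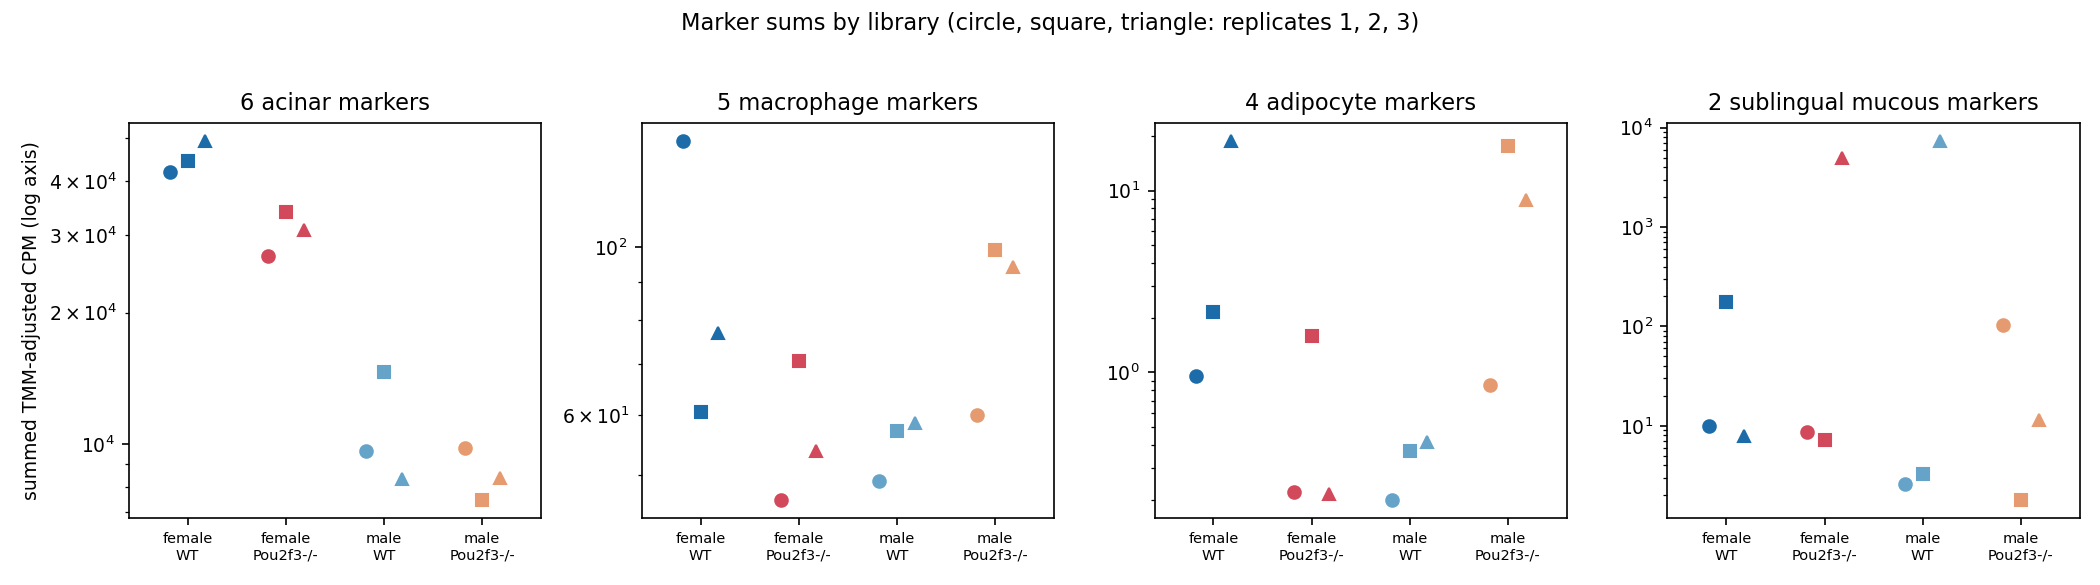
Summed TMM-adjusted CPM (log axis) of 4 marker lists in every library, by group. The acinar sum is lower in knockout than in wild-type females and lower again in males. 3 libraries stand above the others in adipocyte markers, and 2 in sublingual mucous markers.

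The difference between the sexes in the response to knockout was tested directly, as the female log2 difference minus the male one. It was below 0 and passed the test for 5 members: Asns (−0.88, SE 0.18, edgeR adjusted p = 0.00613), Atf4 (−0.72, SE 0.15, edgeR adjusted p = 0.00636), Trib3 (−1.46, SE 0.32, edgeR adjusted p = 0.00918), Psat1 (−1.25, SE 0.36, edgeR adjusted p = 0.0242) and Chac1 (−2.23, SE 0.76, edgeR adjusted p = 0.0461). No member passed above 0. Of all genes tested, 12.4% passed below 0 and 13.4% above. With upper-quartile factors all genes split into 1757 below and 2832 above, against 2214 and 2392 with TMM, and the members' count was 4. Phgdh did not pass (−0.39, SE 0.19, edgeR adjusted p = 0.132), nor did Ddit4 (−0.53, edgeR adjusted p = 0.102), Atf5 (−0.58, edgeR adjusted p = 0.16), Ddit3 (−0.07, edgeR adjusted p = 0.926) or Sesn2 (0.03, edgeR adjusted p = 0.924). Ddit4 passed without knockout female replicate 2 (−0.80, adjusted p = 0.0167) or wild-type female replicate 1 (−0.74, adjusted p = 0.0261), and Atf5 without knockout male replicate 1 (−0.78, adjusted p = 0.0421). Without the libraries high in Muc19, 447 of 18355 genes passed below 0 and 693 above. The members' count was then 2 (Asns and Atf4), and the lost members had differences of −1.37 (Trib3), −1.14 (Psat1) and −2.18 (Chac1). It was 0 without the 3 libraries high in adipocyte markers, a setting that leaves 1 knockout male and calls 0 of 19381 genes, and the adjusted p of the 5 members then ran from 0.0936 to 0.35. Their differences in that setting were −1.08 for Asns, −0.66 for Atf4, −1.16 for Psat1, −1.0 for Trib3 and −1.37 for Chac1, each below 0 as in the full set of libraries. Chac1 was lost on leaving out any of 7 single libraries (−2.45 to −1.61, adjusted p from 0.0645 to 0.131), namely wild-type female replicate 2, knockout female replicates 1 and 2, wild-type male replicates 1 and 3, and knockout male replicates 2 and 3. Psat1 was lost without wild-type male replicate 3 (−1.19, adjusted p = 0.0572) or knockout male replicate 3 (−1.21, adjusted p = 0.0535). Below 0 in the same test were 4 of 4 adipocyte markers, 3 of 5 macrophage markers and 2 of 4 tested markers of blood, whose part was not tested. Without the libraries high in Muc19 these counts were 0 of 4, 0 of 5 and 1 of 4, with medians of −8.11, −1.41 and −3.14.

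**Figure D3:**
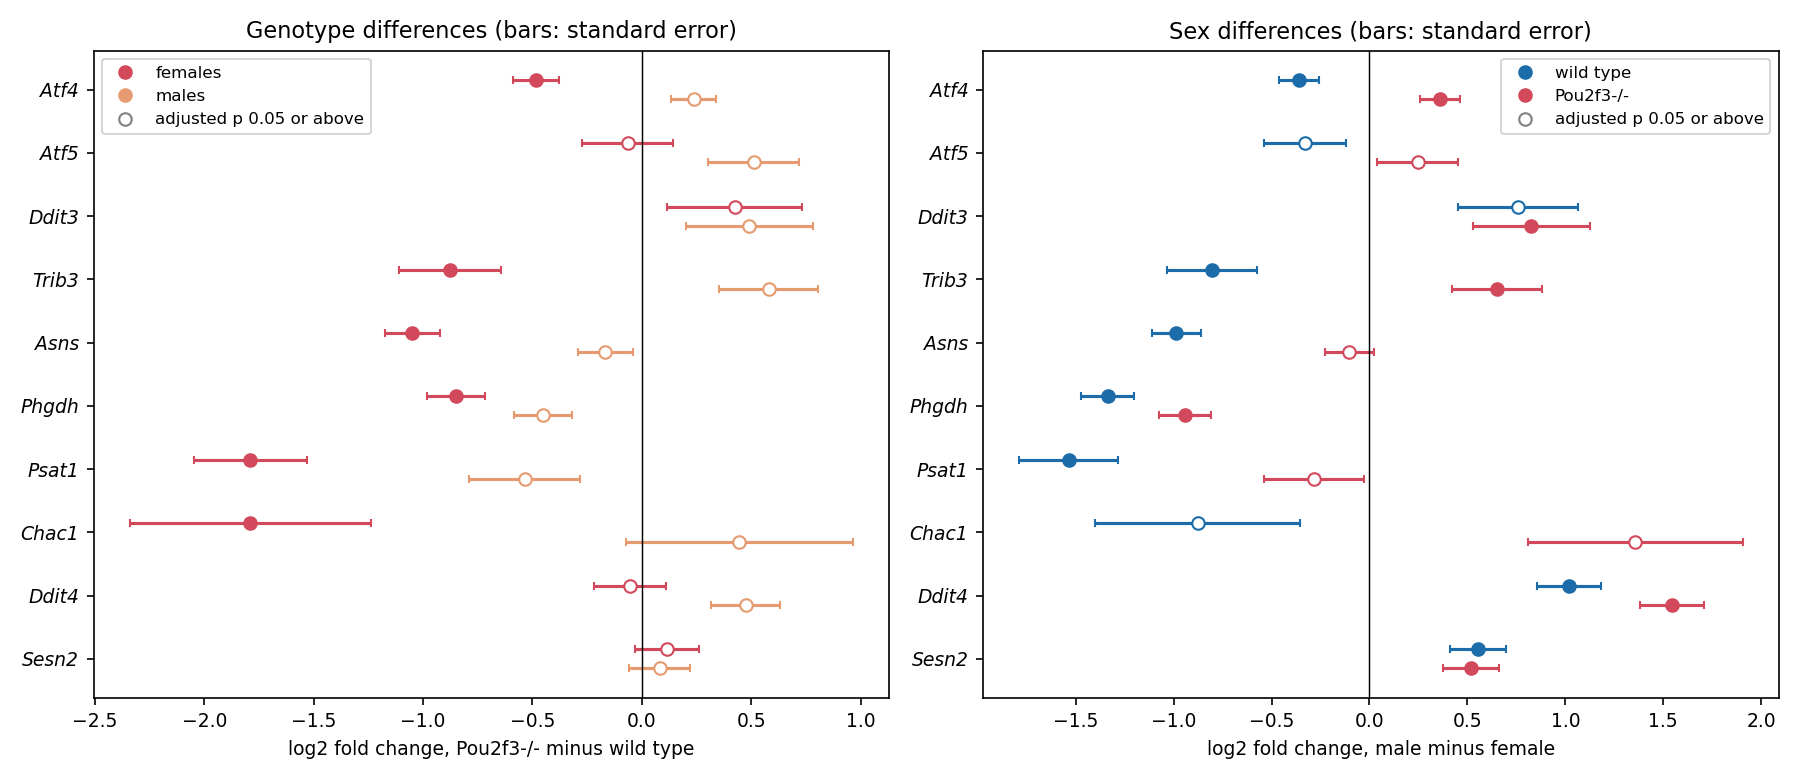
Log2 fold changes of the members with their SE, by genotype within each sex (left) and by sex within each genotype (right). Filled points passed the edgeR test at an adjusted p under 0.05 and open points did not. When the sexes are compared, Atf4, Trib3, Chac1 and Atf5 lie on opposite sides of 0 in the 2 genotypes, with filled points in both for Atf4 and Trib3.

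The comparison of the sexes, male minus female, used the same libraries and shares its groups with the comparisons above. In wild type, 5 members were lower in males: Phgdh (−1.34), Asns (−0.99), Psat1 (−1.54), Trib3 (−0.80) and Atf4 (−0.36), with edgeR adjusted p from 7.27e-06 to 0.0156. Both Ddit4 (1.02, edgeR adjusted p = 0.000351) and Sesn2 (0.55, edgeR adjusted p = 0.00889) were higher in males. Sesn2 did not pass with the authors' divisors (0.38, adjusted p = 0.109) or without the libraries high in adipocyte markers (0.45, adjusted p = 0.0635), and Ddit3 passed without wild-type male replicate 2 (0.97, adjusted p = 0.0259). Of all genes, 16% were lower and 20.5% higher. Upper-quartile factors gave the members the same count of 7 but split all genes into 3595 lower and 3082 higher, against 2863 and 3660 with TMM. Without wild-type male replicate 3, which is high in Muc19, Atf4 (−0.28, adjusted p = 0.0819) and Trib3 (−0.71, adjusted p = 0.064) did not pass, and Atf4 was also lost without wild-type male replicate 1 (−0.35, adjusted p = 0.0548). Atf4 (−0.28, edgeR adjusted p = 0.0997) and Trib3 (−0.70, edgeR adjusted p = 0.0799) also did not pass without the libraries high in Muc19.

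In the knockout, Phgdh alone was lower in males (−0.94, edgeR adjusted p = 0.00012), where 20.3% of all genes were lower. Higher in males were Ddit4 (1.55), Ddit3 (0.83), Trib3 (0.65), Sesn2 (0.52) and Atf4 (0.36), with edgeR adjusted p from 1.28e-05 to 0.0392, against 23.2% of all genes. Asns, at −0.10 (edgeR adjusted p = 0.531), and Psat1, at −0.28 (edgeR adjusted p = 0.397), did not pass in the knockout. Chac1 was at 1.36 (edgeR adjusted p = 0.0606) and did not pass either, but passed with the DESeq2 Wald test (adjusted p = 0.0237), without the filter (adjusted p = 0.0144), with separate fits (adjusted p = 0.0416) and without the libraries high in Muc19 (1.68, adjusted p = 0.0402). It also passed without wild-type female replicate 2 (1.42, adjusted p = 0.0427), knockout male replicate 1 (1.71, adjusted p = 0.0256) or wild-type male replicate 3 (1.36, adjusted p = 0.039). Without knockout male replicate 3, however, Chac1 was at 0.74 (adjusted p = 0.318), and without the libraries high in adipocyte markers its adjusted p was 0.807. Some of the settings that gained Chac1 lost other members. Without the libraries high in Muc19, Ddit3 (0.98, adjusted p = 0.0583), Sesn2 (0.41, adjusted p = 0.0759) and Trib3 (0.67, adjusted p = 0.0852) did not pass, and Trib3 did not pass with separate fits (adjusted p = 0.0615) or without the filter (adjusted p = 0.0806). With the authors' divisors Asns passed (−0.50, adjusted p = 0.0189), while Atf4 (0.28, adjusted p = 0.0897) and Trib3 (0.24, adjusted p = 0.578) did not. The count of 6 depended on the scaling: with upper-quartile factors, which put the median of all genes at −0.18, Ddit4 alone was higher and Phgdh alone lower, and all genes split into 4985 lower and 3054 higher, against 3635 and 4155 with TMM. The count was 3 without knockout male replicate 2, where Atf4 (0.32, adjusted p = 0.0532), Trib3 (0.57, adjusted p = 0.108) and Ddit3 (0.60, adjusted p = 0.163) were lost, and 2 without the libraries high in adipocyte markers. In Ddit4 and Sesn2 each male library lay above each female one, with the lowest male at 24.9 and the highest female at 15.5 CPM in Ddit4. In Phgdh each female library lay above each male one. Such separation was common: in wild type alone 3748 of 17893 genes were lower and 4776 higher in males without overlap. In the knockout alone these were 4923 and 4886, and the share over all 12 libraries was not computed. Trib3 was also lost without knockout male replicate 3 (0.55, adjusted p = 0.128) and without each of the 3 knockout females (0.68 to 0.73, adjusted p from 0.0614 to 0.0717), and Ddit3 without knockout female replicate 2 (0.63, adjusted p = 0.113). In both genotypes 5 of the 6 acinar markers were lower and 5 of the 6 granular convoluted tubule and 4 of 4 myoepithelial markers higher in males. Adipocyte markers were lower in males in wild type (3 of 4) and higher in the knockout (4 of 4), and macrophage markers were lower in wild type (4 of 5) and higher in the knockout (2 of 5). Duct markers were higher in males in wild type (2 of 5) and in the knockout (5 of 5), and 3 of 4 tested blood markers were higher in knockout males. The part of these cells in the members' differences was not tested.

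The levels may also be read in order across the groups. For Atf4 the order of means was wild-type females (71.3 ± 2.62 CPM, SD, n = 3), knockout males (65.4 ± 5.09), wild-type males (55.5 ± 7.16) and knockout females (51.0 ± 2.01), and each group overlapped the next in this order. For Asns it was wild-type females (166 ± 13.8), wild-type males (83.9 ± 9.99), knockout females (80.3 ± 6.62) and knockout males (74.7 ± 8.77), and the last 3 overlapped. For Phgdh the order was wild-type females (65.0 ± 5.47), knockout females (36.1 ± 1.04), wild-type males (25.7 ± 2.08) and knockout males (18.8 ± 4.18), with overlap only between the male groups.

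Upstream of Atf4 stands a list of 14 genes of the eIF2alpha kinases, the phosphatase subunits and the eIF2 and eIF2B complexes. Of these, 9 fell and 1 rose in knockout females, with a median of −0.54. For this list and those below, 19.3% of all genes tested fell and 17.6% rose in that comparison. Eif2s1, which encodes eIF2alpha itself, fell from 25.6 ± 0.992 to 14.2 ± 1.2 CPM (SD, n = 3, −0.85, edgeR adjusted p = 0.000267). Eif2s3x, its gamma subunit, fell by 0.93 (edgeR adjusted p = 0.000353). Ppp1r15b, the constitutive subunit that directs phosphatase to eIF2alpha, fell by 0.87 (edgeR adjusted p = 0.000272), while the stress-induced subunit Ppp1r15a had a difference of 0.03 (edgeR adjusted p = 0.926). The gene that rose was Eif2ak4, which encodes GCN2, the kinase that senses uncharged tRNA. It went from 8.01 ± 0.372 to 14.1 ± 1.97 CPM (SD, n = 3, 0.81, edgeR adjusted p = 0.000658), and its genotype difference was larger in females than in males by 0.98 (edgeR adjusted p = 0.00474). Of the other kinases Eif2ak1 fell by 0.36 (edgeR adjusted p = 0.0151), while Eif2ak3, which encodes PERK, was at −0.27 (edgeR adjusted p = 0.0807) and Eif2ak2 at −0.06 (edgeR adjusted p = 0.819). Ppp1r15a and these 3 kinases were named after their values were seen. For the difference between the sexes 7 of the 14 passed below 0 and 1 above, against 12.4% and 13.4% of all genes tested. In males 0 of the 14 passed and 1 had an unadjusted p under 0.05, with values of −0.33 for Ppp1r15b (edgeR adjusted p = 0.247), −0.27 for Eif2b3 (edgeR adjusted p = 0.552) and −0.17 for Eif2ak4 (edgeR adjusted p = 0.656).

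Of 9 partner and stress factors, 4 fell and 0 rose in knockout females (median −0.40). Cebpg, a dimer partner of ATF4, fell from 29.1 ± 1.14 to 22.1 ± 0.938 CPM (SD, n = 3, −0.40, edgeR adjusted p = 0.00381). Nfe2l2, the oxidative stress factor, fell by 0.41 (edgeR adjusted p = 0.00382), Cebpb by 0.51 (edgeR adjusted p = 0.0136) and Atf2 by 0.35 (edgeR adjusted p = 0.0101). For each of these 4 the female difference was also below the male one by 0.44 to 0.71, with edgeR adjusted p from 0.018 to 0.0254. No factor passed in males (0 of 9, 0 at an unadjusted p under 0.05), and the values of Jdp2 (0.38), Atf7 (−0.14) and Atf3 (0.53) had edgeR adjusted p from 0.51 to 0.628.

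Of 12 other ATF4 targets in metabolism, 9 fell and 0 rose in knockout females, with a median of −0.70. Gpt2, an alanine aminotransferase of mitochondria, fell from 92.6 ± 6.18 to 48.8 ± 2.22 CPM (SD, n = 3, −0.92, edgeR adjusted p = 0.000159). Aldh18a1, which starts proline synthesis from glutamate, fell by 0.89 (edgeR adjusted p = 0.000193), and Pycr1, which ends it, by 0.81 (edgeR adjusted p = 0.000453). The male test passed 0 of 12, and 3 at an unadjusted p under 0.05, and 12 of 12 had a difference below 0, with a median of −0.27, against 57.5% of all genes and a median of −0.04. The male values were −0.48 for Pycr1 (edgeR adjusted p = 0.129), −0.62 for Aldh1l2, a folate enzyme of mitochondria (edgeR adjusted p = 0.129), and −0.36 for Gpt2 (edgeR adjusted p = 0.189). In wild type 8 of these 12 were lower and 1 higher in males than in females, against 16% and 20.5% of all genes tested.

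The 10 other targets in signalling and secretion divided. Fgf21 did not pass the filter, and of the other 9, 4 fell and 1 rose in knockout females, with a median of 0.11. Sqstm1, an autophagy receptor, fell by 0.54 (edgeR adjusted p = 0.00124), and Herpud1, which acts in the removal of unfolded protein, by 1.17 (edgeR adjusted p = 0.00161). Vegfa, the vascular growth factor, rose from 24.2 ± 5.09 to 47.8 ± 5.55 CPM (SD, n = 3, 0.98, edgeR adjusted p = 0.00139), and was at 325 ± 34.8 CPM in wild-type males. None passed in males (0 of 9, 0 at an unadjusted p under 0.05). The male differences were 0.27 for Vldlr (edgeR adjusted p = 0.532), 0.31 for Herpud1 (edgeR adjusted p = 0.646) and 1.04 for Gdf15 (edgeR adjusted p = 0.66).

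Beside these, 3 lists give the state of routes that share targets with ATF4. Of 10 genes of the XBP1 and ATF6 arms, 7 fell and 0 rose in knockout females (median −0.82). Xbp1, the factor of secretory cells, fell from 308 ± 61.9 to 154 ± 9.79 CPM (SD, n = 3, −1.0, edgeR adjusted p = 0.000447), Atf6 by 0.65 (edgeR adjusted p = 0.000785) and the chaperone Dnajc3 by 1.0 (edgeR adjusted p = 0.000907). For the difference between the sexes 8 of the 10 passed below 0, against 12.4% of all genes tested. The male test passed 0 of 10, and 4 at an unadjusted p under 0.05 (against 11.5% of all genes), with differences of 0.96 for Creld2 (edgeR adjusted p = 0.297), 0.79 for the chaperone Hspa5 (edgeR adjusted p = 0.332) and 0.89 for Sdf2l1 (edgeR adjusted p = 0.372). The other of these 4, Ern1, went downward (−0.27, edgeR adjusted p = 0.381) and was named after its values were seen. Of 8 p53 targets, 3 fell in knockout females: Zmat3 (−0.78), Ccng1 (−0.64) and Phlda3 (−0.53), with edgeR adjusted p from 0.000267 to 0.0327, and the median was 0.08. Of 9 glucocorticoid targets, Klf9 alone fell (−0.48, edgeR adjusted p = 0.0049), while Fkbp5 (−0.52, edgeR adjusted p = 0.0778) and Tsc22d3 (−0.49, edgeR adjusted p = 0.0744) did not pass. In males none of either list passed by adjusted p (2 p53 and 2 glucocorticoid targets at an unadjusted p under 0.05). The male p53 values were 1.86 for Cdkn1a (edgeR adjusted p = 0.135), −0.37 for Sesn1 (edgeR adjusted p = 0.373) and 0.15 for Mdm2 (edgeR adjusted p = 0.508). For glucocorticoid targets they were 0.74 for Tsc22d3 (edgeR adjusted p = 0.169), 1.31 for Dusp1 (edgeR adjusted p = 0.243) and −0.46 for Sgk1 (edgeR adjusted p = 0.438). Between the sexes, 5 of the 9 glucocorticoid targets were higher and 1 lower in males in wild type, and 5 were higher and 2 lower in the knockout. Of the 8 p53 targets 2 were higher and 1 lower in wild-type males, and 4 were higher and 1 lower in knockout males.

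Over all genes tested, 2413 of 18355 fell in knockout females without the libraries high in Muc19. Without these libraries, the listed genes that fell were 7 of 14 in the eIF2 list, 2 of 9 partner factors, 7 of 12 metabolic targets, 3 of 9 signalling targets and 5 of 10 of the XBP1 and ATF6 arms. Without those high in adipocyte markers the same counts were 8, 3, 9, 4 and 7. In both settings 2 of 8 p53 targets fell, while 1 of 9 glucocorticoid targets fell in the first and 2 of 9 in the second. For the difference between the sexes the counts below 0 were 2, 0, 1, 1 and 2 without the libraries high in Muc19, with medians of −0.46, −0.47, −0.43, −0.0091 and −1.10. They were 0 in each list without those high in adipocyte markers, with medians of −0.55, −0.45, −0.59, 0.027 and −0.72. In males 0 genes of these lists passed in either setting. There the male median of the XBP1 and ATF6 genes went from 0.31 to 0.20 and −0.092, and 10 of 12 metabolic targets were below 0 without the libraries high in adipocyte markers.

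**Figure D4:**
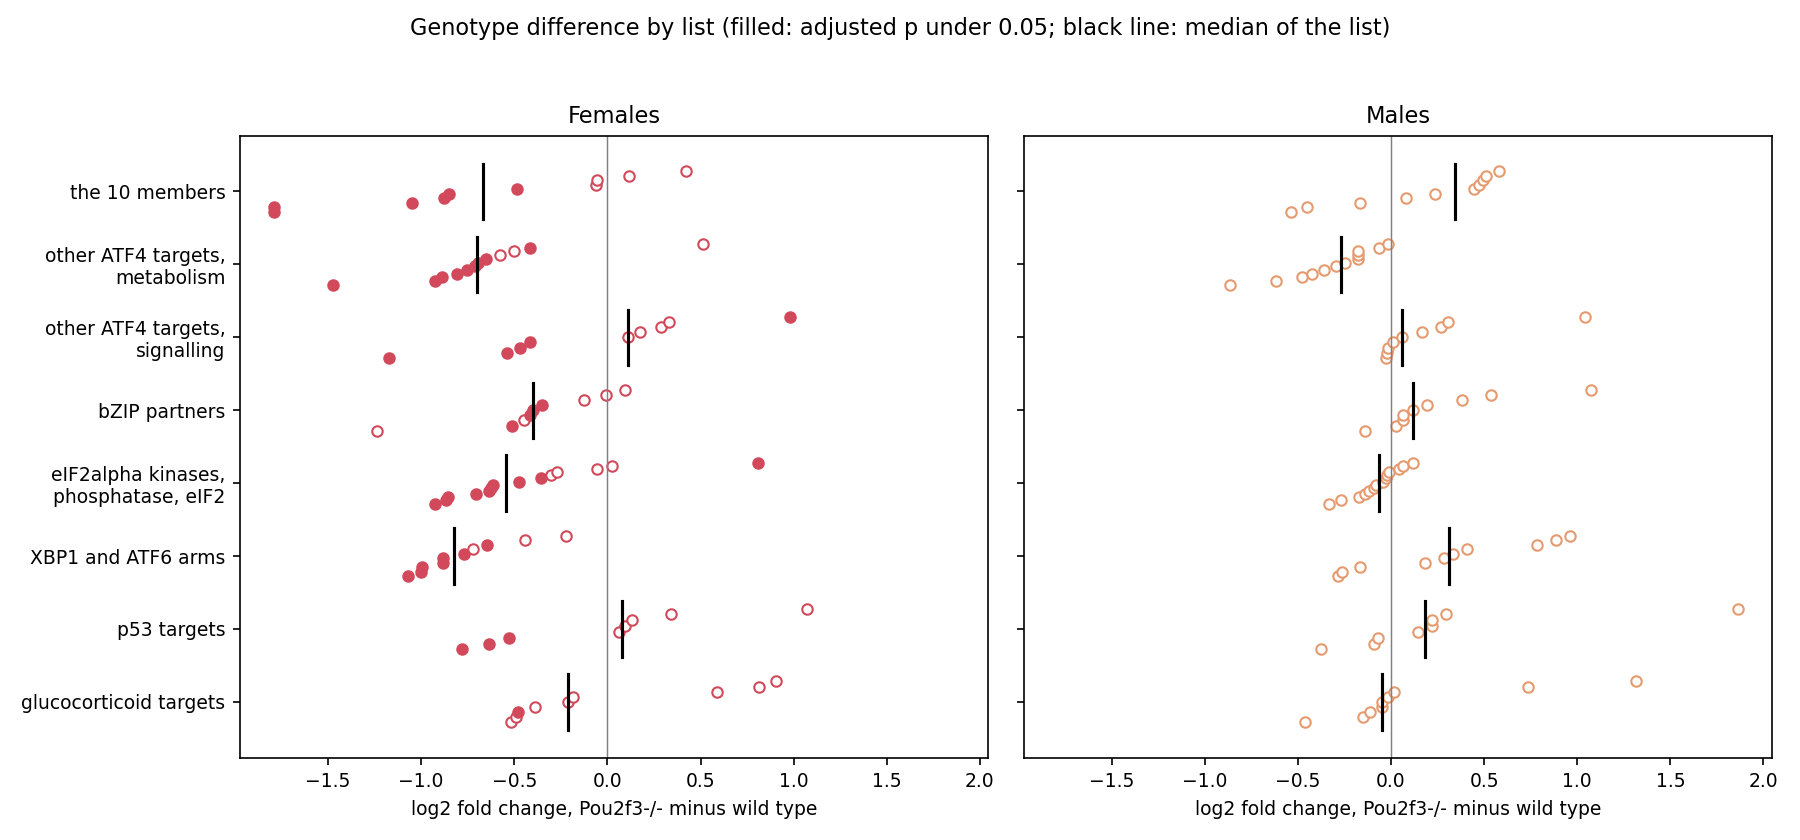
Log2 fold changes, knockout minus wild type, of the members and of 7 lists, in females and in males. Each point is a gene that was tested, filled where the edgeR adjusted p was under 0.05, and the black line is the median of the list. In females most filled points lie below 0, and in males there are none.

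The genes whose pattern was most like that of Atf4 over the 12 libraries, by the root mean square difference of log2 CPM centred on each gene's own mean, were Lmna (0.0541), Tmem134 (0.0807), Psme2 (0.0820), Rps24 (0.0977) and Hmgn1 (0.0994). The spread of Atf4 itself on this scale was 0.213, and the median difference over other genes was 0.469. Lmna, a protein of the nuclear lamina, went from 42.8 ± 0.783 CPM in wild-type to 29.9 ± 0.791 CPM in knockout females (SD, n = 3), and from 33.6 ± 2.94 to 38.0 ± 2.40 CPM in males. The member nearest to Atf4 was Trib3, at 0.237, and 2341 genes outside the set were nearer. Atf5 was at 0.288, Sesn2 at 0.385 and Asns at 0.393. Psat1 was the farthest member, at 0.740. The measure favours genes that vary as little as Atf4: a gene with no variation at all would be at 0.213, nearer than any member. All genes were also measured in the same 12 libraries, with the same group structure.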

How the data were processed

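Total RNA of snap-frozen SMGs was depleted of ribosomal RNA and sequenced as stranded paired-end libraries, although the labels name the molecule as polyA RNA. The authors quantified transcripts with Salmon 1.10.1 against Gencode M35 (GRCm39) and deposited estimated counts per gene. The authors also deposited a normalised signal, counts over gene- and library-specific divisors whose making is not given in the sources used here. It served as an alternative only.

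Estimated counts were rounded and analysed with edgeR 4.0.16 in R 4.3.3 (TMM factors, filterByExpr, 1 mean per group over all 12 libraries, quasi-likelihood test, Benjamini-Hochberg adjustment within each contrast over 17893 genes). The SE was taken from F as |log2 fold change| over its root. Centred log2 CPM used a prior count of 2. The members, the lists and the rule for naming were chosen with earlier results of these data known. All members are named. From each list the 3 genes with the smallest adjusted p in the female or male genotype contrast are named, and those with a role paired to a member that passed the test between sexes. Strand settings of the quantification are not given in the sources used here. Symbols and positions come from Gencode M39, which held 55563 of the identifiers. With n = 3 a group, an edgeR p-value sets a group difference against the spread between these mice, estimated over all 4 groups together.

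The alternatives were RLE and upper-quartile factors, leaving the 20 most abundant genes out, no filter, at least 10 counts in every library, separate fits, DESeq2 1.42.0, the authors' divisors, a replicate block, and each library left out. Leaving out the libraries high in Muc19 (over 1000 CPM) or in adipocyte markers (over 5 CPM) was added after seeing the data. The fits were tested on simulated data, and the outcome is not reported here. Figures were drawn with matplotlib 3.10.9.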

Additional observations from a re-analysis of the deposited data

Results flagged for a closer look

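The genotype difference was lower in females than in males for 5 members by edgeR's quasi-likelihood test of the difference itself, which is what marks them for a closer look. On the log2 scale, females minus males, it was −0.72 for Atf4 (edgeR adjusted p = 0.00636), −0.88 for Asns (edgeR adjusted p = 0.00613), −2.23 for Chac1 (edgeR adjusted p = 0.0461), −1.46 for Trib3 (edgeR adjusted p = 0.00918) and −1.25 for Psat1 (edgeR adjusted p = 0.0242). Over all alternatives the adjusted p ran from 3.53e-05 to 0.109 for Atf4, from 5.63e-06 to 0.0936 for Asns, from 0.00811 to 0.35 for Chac1, from 0.000542 to 0.174 for Trib3 and from 0.00211 to 0.196 for Psat1. For each of the 5 the highest value came from leaving out the libraries high in adipocyte markers.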

How the results depend on the processing

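Of 1140 member differences under an alternative, 34 changed sign, none of them for a member that passed the test in the analysis reported. The number of members that passed was 5 to 6 in females, 0 to 1 in males, 3 to 6 for the difference between sexes, 5 to 8 for sex in wild type and 3 to 7 for sex in knockouts when each library was left out in turn. The 1 male call was Phgdh, without knockout male replicate 1. For the difference between sexes it was 3 without wild-type male replicate 3 or knockout male replicate 3 (Chac1 and Psat1 lost), 2 without the libraries high in Muc19 (lost: Trib3 −1.37, Psat1 −1.14, Chac1 −2.18) and 0 without those high in adipocyte markers (Asns −1.08, Atf4 −0.66, Psat1 −1.16, Trib3 −1.0, Chac1 −1.37), where 1 knockout male is left and is assumed to vary like the other groups. For sex in knockouts it was 2 with upper-quartile factors and 2 without the libraries high in adipocyte markers. Upper-quartile factors moved the median of all genes to 0.13 in females, and to 0.11 for the difference between sexes, where it was 0.18 with no filter and 0.12 with DESeq2. Separate fits cannot give the difference between sexes. The median of the members in males (0.34) was 0.12 without wild-type male replicate 3, without knockout male replicate 3 or without high Muc19, and 0.015 without high adipocyte markers. The cause of these changes was not tested.

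Sign changes in females were Atf5 0.039 and Ddit4 0.051 (upper-quartile factors), Atf5 0.054 and Ddit4 0.12 (without high Muc19), and Ddit4 0.024 and Sesn2 −0.013 (without high adipocyte markers). With libraries left out 1 at a time they ran from −0.26 to 0.026 for Atf5, −0.29 to 0.074 for Ddit4 and −0.038 to 0.18 for Sesn2. In males they were Asns 0.020, Chac1 −0.66 and Sesn2 −0.081 (without high adipocyte markers), and Chac1 ran from −0.18 to 0.79 with libraries left out. For the difference between sexes Sesn2 was −0.017 with RLE factors, −0.035 without the 20 most abundant genes, −0.021 with DESeq2 and −0.14 with the authors' divisors, and ran from −0.15 to 0.10 with libraries left out. Ddit3 was 0.015 with upper-quartile factors and 0.10 without high adipocyte markers, and ran from −0.30 to 0.15. For sex in knockouts Atf5 was −0.23 and Asns 0.11 without high adipocyte markers, and Asns ran from −0.20 to 0.011 with libraries left out.

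Same-numbered libraries showed no strong shared deviation (correlation across genes from −0.113 to 0.0501 in females and from −0.135 to 0.0904 in males). With 3 libraries a group, these correlations cannot exclude a pairing of the mice by replicate number. With a replicate block 6 members passed in females, 0 in males, 4 for the difference between sexes (Chac1 lost, adjusted p = 0.0725), 7 for sex in wild type and 5 for sex in knockouts (Trib3 lost, adjusted p = 0.0574). Chac1, Trib3 and Ddit3 had 32 to 219 counts per library, and the part of depth in their errors was not tested.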
